A study of Homo sapiens with 12 samples.

Results

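The transcripts described here are 10 genes of the ATF4 amino acid stress response: ATF4 itself, the transcription factors ATF5 and DDIT3, the enzymes ASNS, PSAT1, PHGDH, SHMT2 and CHAC1, and the regulators TRIB3 and SESN2. They were taken by symbol from tables of 26372 genes, and all 10 were present. The cells were HCT116, a human colorectal carcinoma line, either carrying a knockout of KDM3A (KO) or wild type (WT). KDM3A is an enzyme that removes methyl groups from lysine 9 of histone H3. Both genotypes were taken through 3 culture states: mock cells in normal culture, starved cells in culture without serum, and refed cells that received fetal bovine serum (FBS) after 24 h without it. Whether the knockout is 1 clone or a pool, and how long the refed cells had serum, are not given in the labels. Each of the 6 groups has 2 samples in the labels, but 1 column of FPKM per group was analysed here, with no replicate named, so no spread between replicates could be estimated. FPKM are fragments scaled by transcript length and library total, which allows levels to be compared between genes of a group. Summed FPKM came to 1.15e+06 in WT mock and between 481036 and 629410 in the other groups. Genes listed at 0 numbered 7312, 7113 and 7075 in mock, starved and refed KO cells and 6401, 4300 and 4301 in WT. The reason for either was not tested.

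ATF4 is the effector of the integrated stress response. Kinases that sense uncharged tRNA, unfolded protein in the endoplasmic reticulum (ER), haem shortage or double-stranded RNA phosphorylate the initiation factor eIF2, which lowers general translation while upstream reading frames let the ATF4 message be translated more. ATF4 protein is therefore set largely at translation, and its mRNA level alone does not report its activity. With C/EBP partners it binds composite amino acid response elements and induces genes for amino acid synthesis and uptake, tRNA charging and feedback control.

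The composite element has the core TGATGNAA. It was searched for on both strands in RefSeq promoter windows (build GRCh38.p14) that run from 250 bases before to 50 bases after a transcript start. Windows were matched for 9 of the members, without SHMT2, and 2 of these 9 held the core, compared with 4.46% of 27305 genes with a window. The 2 windows that hold it are shown, by match of letters only, and binding to them was not measured. They are written 5′ to 3′ on the strand of the gene, with the core in capitals. The ASNS window shown is chr7:97872359-97872658, minus strand, and its core starts 68 bases before the transcript start. Another ASNS window, chr7:97872116-97872415, did not hold the core. The CHAC1 window is chr15:40953221-40953520, plus strand, and its core reads on the opposite strand, 209 bases before the start.
ASNS: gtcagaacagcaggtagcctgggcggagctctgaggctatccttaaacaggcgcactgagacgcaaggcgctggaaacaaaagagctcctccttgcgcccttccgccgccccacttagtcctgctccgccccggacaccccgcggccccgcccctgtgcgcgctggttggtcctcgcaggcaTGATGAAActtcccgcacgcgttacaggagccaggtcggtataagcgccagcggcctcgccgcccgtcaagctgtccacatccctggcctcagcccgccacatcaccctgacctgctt
CHAC1: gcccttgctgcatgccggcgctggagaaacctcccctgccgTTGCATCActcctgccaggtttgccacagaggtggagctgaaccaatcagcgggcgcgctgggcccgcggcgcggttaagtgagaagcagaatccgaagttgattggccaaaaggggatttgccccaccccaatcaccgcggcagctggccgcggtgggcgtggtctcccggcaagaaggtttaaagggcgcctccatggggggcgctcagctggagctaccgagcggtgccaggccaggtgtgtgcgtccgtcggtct
The windows of ATF4, ATF5, DDIT3, TRIB3, SESN2, PSAT1 and PHGDH did not hold these letters, which says nothing of more distant sites.

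KDM3A was at 3.15, 3.01 and 3.59 FPKM in mock, starved and refed KO cells, against 41.3, 17.8 and 19.8 FPKM in WT cells in the same states, and it fell over the states (log2 -2.58, SE 0.26, limma adjusted p = 0.00730). The epithelial markers EPCAM, CDH1, KRT8, KRT18 and KRT19 were at 13.8 FPKM or more in every group, and the intestinal factor CDX2 was between 6.51 and 9.24 FPKM. The intestinal markers CDX1, VIL1 and LGALS4 were at 0.157 or less, and KRT20 was between 0.368 and 1.19 FPKM. WT mock cells stood apart: 15 of 16 endothelial markers were at 1 FPKM or more there and exceeded each other group at least 2-fold. The whole list summed to 90.2, 68.9 and 70.5 FPKM in mock, starved and refed KO cells and to 308, 57.5 and 49.1 FPKM in WT, and the 15 to 231 FPKM in WT mock and between 4.93 and 5.97 FPKM in the other groups. Of the 16, 4 were listed at 0 in KO mock, 5 in KO starved and 2 in KO refed, and none in the WT groups. The part of that RNA in the WT mock values below was not tested. For the members and other genes of the pathway, counts of calls in the averaged tests on the deposited scale are also given without WT mock. The call of KDM3A, those of many other single genes, and ratios and levels that use WT mock have no such value. Fibroblast markers other than COL1A1 were at 0.884 FPKM or less, and leukocyte markers other than CD68 at 0.615 or less.

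The members spanned a wide range of levels and changed little. ATF4 was the most abundant, between 294 and 415 FPKM, followed by SHMT2 (60.6 to 79.3), PHGDH (23.4 to 30.8), ASNS (16.6 to 22.7), PSAT1 (15.5 to 19.5), DDIT3 (10.6 to 16.3), ATF5 (3.40 to 15.6), TRIB3 (7.73 to 10.2), SESN2 (3.46 to 5.67) and CHAC1 (1.31 to 2.26). Ranges over the groups overlapped between neighbours from ASNS down to TRIB3 and were apart between the others. In 9 of the 10 members the highest group was under 2-fold above the lowest, as in 71.7% of the 13081 tested features above 0 in every group. ATF5 was the exception, with a span of 4.60-fold. The median span was 1.39-fold for the members and 1.62-fold for those features.

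**Figure D1:**
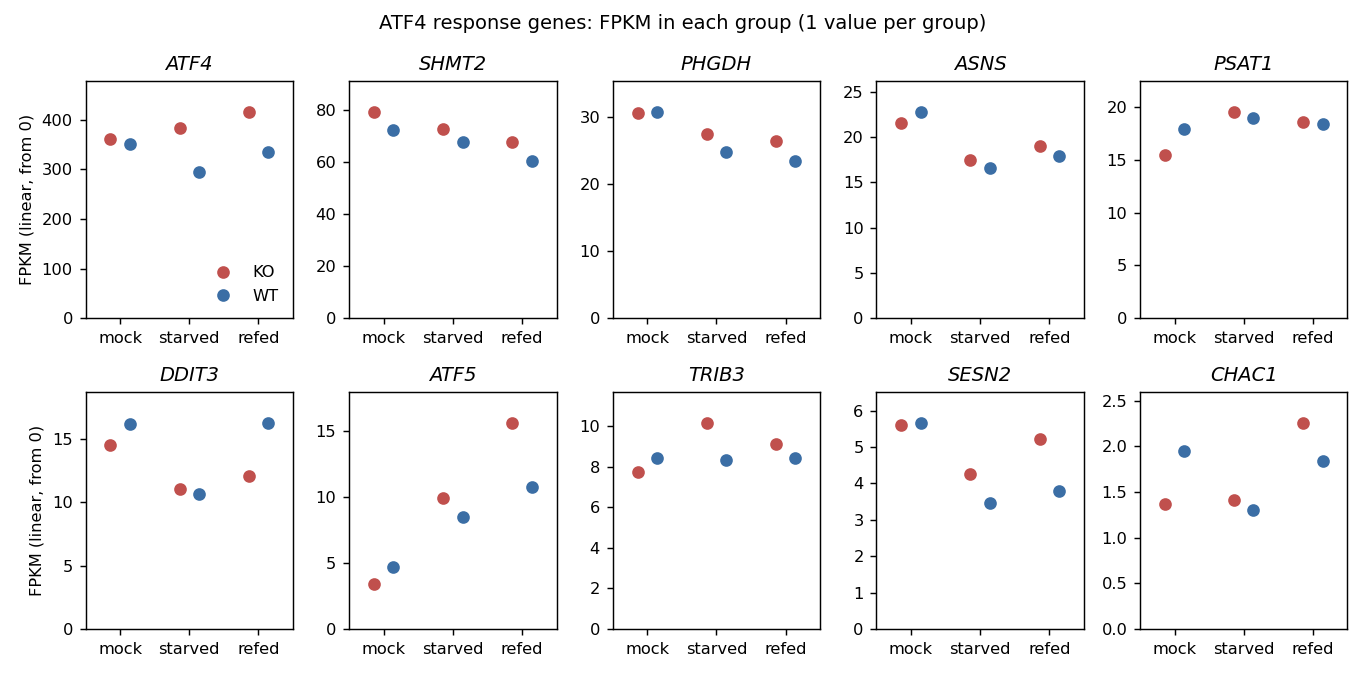
FPKM of the 10 members (linear axes from 0, in order of mean level) in mock, starved and refed cells, with KO as red points and WT as blue points, 1 value per group. ATF5 climbs with each culture state in both genotypes, to 15.6 FPKM in KO refed cells and 10.7 FPKM in WT refed cells, and the other members stay within 1.73-fold.

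KO was compared with WT to ask whether loss of KDM3A alters this response. No member differed 2-fold in any state, and none passed the test over states on the deposited scale, which does not show that the levels were equal. Ratios below are log2 of (FPKM + 1) without a test, and the test over states is limma on the 6 values with culture state as an additive term, with Benjamini-Hochberg adjustment over 13456 features. Its 2 residual degrees of freedom are the interaction of genotype and state, so the SE measures how even a difference was over states, not replicate error. Values in KO lay between 0.701 and 1.10 times WT in mock cells, between 1.03 and 1.30 times in starved cells and between 0.742 and 1.46 times in refed cells.

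ATF4 was at 361, 382 and 415 FPKM in mock, starved and refed KO cells, against 350.0, 294 and 335 FPKM in WT cells. It was higher in KO in each state, as were 54.3% of all features, and the 3 KO values lay above the 3 WT values. The averaged difference was log2 0.24 (SE 0.10, limma adjusted p = 0.120). Rescaled by median ratio, it was log2 0.05 (limma adjusted p = 0.546), and the ratio in mock cells was log2 -0.03. ATF4 has 4 annotated pseudogenes, ASNS 4 and PSAT1 4, and how shared reads were counted is not given. ATF5, a relative of ATF4 whose message is also controlled by upstream reading frames, was at 3.40, 9.88 and 15.6 FPKM in KO and 4.67, 8.45 and 10.7 FPKM in WT. In KO it was below WT in mock culture and above WT after starvation and refeeding (averaged log2 0.11, SE 0.18, limma adjusted p = 0.632). Rescaled by median ratio, the ATF5 ratios were log2 -0.42, -0.01 and 0.25 in mock, starved and refed cells. DDIT3, the C/EBP relative CHOP that promotes death under lasting stress, was at 14.6, 11.1 and 12.1 FPKM in KO and 16.2, 10.6 and 16.3 FPKM in WT. The genotypes were furthest apart in refed cells, where KO was at 0.742 times WT.

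Among the feedback regulators, TRIB3, a pseudokinase that binds and restrains ATF4, was at 7.73, 10.2 and 9.14 FPKM in mock, starved and refed KO cells and at 8.44, 8.36 and 8.43 FPKM in WT cells. The WT values of TRIB3 were nearly level. SESN2, a leucine sensor that restrains the growth kinase mTORC1, was at 5.61, 4.26 and 5.23 FPKM in KO and 5.67, 3.46 and 3.79 FPKM in WT. It was level between genotypes in mock cells and higher in KO in starved and refed cells, at 1.23 and 1.38 times WT (averaged log2 0.20, SE 0.09, limma adjusted p = 0.152). Rescaled by median ratio, the averaged difference of SESN2 was log2 0.04 (limma adjusted p = 0.623). CHAC1, which degrades glutathione, was the lowest of the members, at 1.37, 1.41 and 2.26 FPKM in KO and 1.95, 1.31 and 1.84 FPKM in WT. Its pseudocount of 1 is close to its level, which understates its ratios.

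Next come the enzymes of amino acid and one-carbon synthesis. ASNS, which makes asparagine and whose promoter window shown above holds the core, was at 21.5, 17.5 and 19.0 FPKM in KO and 22.7, 16.6 and 17.8 FPKM in WT. PHGDH, the first enzyme of serine synthesis, was at 30.6, 27.5 and 26.4 FPKM in KO and 30.8, 24.7 and 23.4 FPKM in WT. PSAT1, the next enzyme of that route, was at 15.5, 19.5 and 18.6 FPKM in KO and 17.9, 19.0 and 18.4 FPKM in WT. SHMT2, which passes the serine carbon to mitochondrial folate, was at 79.3, 72.6 and 67.8 FPKM in KO and 72.2, 67.8 and 60.6 FPKM in WT. As deposited, both ASNS and PSAT1 were below WT in mock cells and slightly above it in the other states. SHMT2 was above WT in all 3 states, as were 54.3% of all features. Rescaled by median ratio, ASNS was at log2 -0.15, -0.15 and -0.17 in KO against WT in mock, starved and refed cells. PSAT1 was then at -0.27, -0.18 and -0.24, and SHMT2 at 0.06, -0.13 and -0.11.

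At 2-fold, 0 of the 10 members were called in mock cells, where 2.27% of all features were higher and 3.22% lower in KO. The count was also 0 in starved cells (2.59% higher and 1.46% lower over all features) and in refed cells (3.41% and 1.51%). Over states 0 members rose and 0 fell by limma, where 28.7% of all features rose and 4.58% fell. An unadjusted limma p under 0.05 was found for 0 of the 10 members and for 6472 of the 13456 features. The deposited values were shifted between groups, with a median log2 ratio over all features of 0.07 in mock, 0.19 in starved and 0.22 in refed cells. The members' medians were -0.10, 0.12 and 0.16, so 1, 4 and 3 of the 10 lay above the median of all features in these states. After median-ratio rescaling 12.3% of all features rose and 10.8% fell, and PSAT1 fell in KO (log2 -0.23, limma adjusted p = 0.0322). Without WT mock the fit called ATF4 (log2 0.34, adjusted p = 0.0327) and SESN2 (log2 0.31, adjusted p = 0.0447) as risen, where 37.4% of all features rose and 5.01% fell. Without KO mock it called the same genes (adjusted p = 0.0326 and 0.0443), where 37.5% rose and 4.99% fell, since either omission leaves the starved and refed contrasts.

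**Figure D2:**
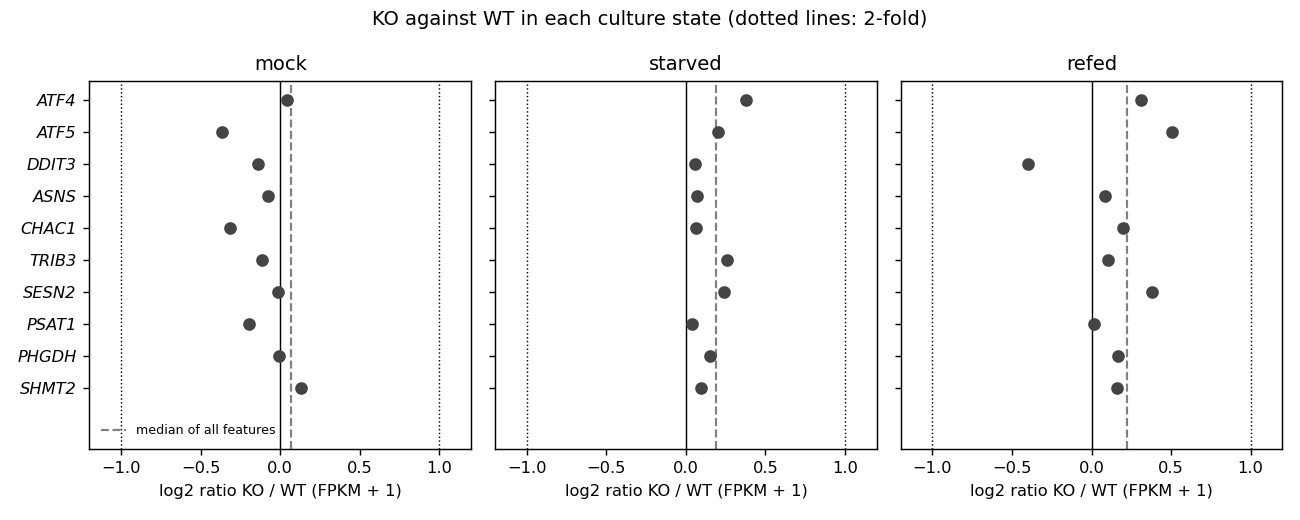
Log2 ratio of KO over WT (FPKM + 1) for each member in mock, starved and refed cells, 1 value each. The dashed line is the median of all features (0.07, 0.19 and 0.22), the dotted lines mark 2-fold, and all points lie inside them.

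The starved state was set against mock to follow serum withdrawal. ATF5 rose, and ASNS and SESN2 fell, where 19.4% of all features fell. ATF5 was at 9.88 FPKM in starved and 3.40 FPKM in mock KO cells, and at 8.45 FPKM in starved and 4.67 FPKM in mock WT cells. That is 2.91 times mock in KO and 1.81 times mock in WT, averaged to log2 1.02 (SE 0.21, limma adjusted p = 0.0349). ASNS was at 0.813 times its mock level in starved KO cells and 0.728 times in starved WT cells (averaged log2 -0.36, SE 0.08, limma adjusted p = 0.0375). SESN2 was at 0.761 times mock in KO and 0.610 times in WT (averaged log2 -0.45, SE 0.11, limma adjusted p = 0.0477). All of these moved the same way in both genotypes, which the test favours because its SE comes from the interaction of genotype and state.

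DDIT3 was also lower in starved than in mock cells in both genotypes, at 0.761 times in KO and 0.657 times in WT, and missed the threshold (averaged log2 -0.46, limma adjusted p = 0.0575). Rescaled by median ratio, it was at log2 -0.33 (limma adjusted p = 0.152). The median log2 ratio of starved over mock for all features was -0.06 in KO and -0.19 in WT as deposited. PHGDH had an averaged log2 of -0.23 (adjusted p = 0.107). The DDIT3 gene overlaps MARS on the other strand, and counting by strand is not stated. ATF5 overlaps NUP62 and IL4I1 on the other strand: NUP62 was at 18.5, 23.1 and 22.9 FPKM in mock, starved and refed KO cells and at 19.8, 24.4 and 24.1 FPKM in WT, and IL4I1 was at 0.621 FPKM or less. ATF4 went opposite ways without a test, at 1.06 times mock in starved KO cells and 0.840 times in starved WT cells.

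By limma 1 of the 10 members rose and 2 fell, where 5.83% of all features rose and 19.4% fell. The share of members that fell was near that of all features. An unadjusted limma p under 0.05 was found for 5 of the 10 members and for 5728 of the 13456 features. At 2-fold 1 member, ATF5, was called higher in KO, where 0.951% of features were higher and 1.18% lower, and 0 were called in WT, where 1.03% were higher and 3.91% lower. After median-ratio rescaling, 15.2% of all features rose and 14.5% fell, and TRIB3 (log2 0.31, adjusted p = 0.0480) and PSAT1 (0.34, adjusted p = 0.0213) joined ATF5 (1.14, adjusted p = 0.0196), while ASNS and SESN2 still fell. With 1 value left out, which leaves 1 residual degree of freedom, these calls held without KO mock, with ATF5 at log2 0.66 (adjusted p = 0.0492), where 4.71% of all features rose and 26.6% fell. With KO mock left out, WT mock is the only mock value in the fit. The calls were lost without WT mock, KO starved, WT starved, KO refed or WT refed. Nearly all features lost their calls in these fits: 0.0372% rose and 0.134% fell without WT mock, and at most 1 rose and 1 fell without any of the others. Without WT mock, ATF5 was at log2 1.38 (adjusted p = 0.0612), ASNS at -0.28 (0.0833) and SESN2 at -0.29 (0.110), and ATF5 had adjusted p between 0.0612 and 0.271 over these 5 fits.

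Refed cells were compared with starved cells to follow serum return. No member passed the test, and ATF5 had the largest averaged difference. ATF5 was at 15.6 FPKM in refed and 9.88 FPKM in starved KO cells, and at 10.7 FPKM in refed and 8.45 FPKM in starved WT cells (averaged log2 0.46, SE 0.21, limma adjusted p = 0.656). It therefore stood at 4.60 times its mock level in KO refed cells and 2.30 times in WT refed cells. CHAC1 was at 2.26 FPKM in refed and 1.41 FPKM in starved KO cells, and at 1.84 and 1.31 FPKM in the same WT states. Refed DDIT3 was at 1.09 times its starved level in KO and 1.53 times in WT. Refed TRIB3, PSAT1, PHGDH, SHMT2, ASNS and ATF4 lay between 0.893 and 1.14 times their starved levels.

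By limma 0 members rose or fell, where 0.773% of all features rose and 0.052% fell. Median-ratio rescaling again gave 0 members, where 0.944% of all features rose and 0.0669% fell. An unadjusted limma p under 0.05 was found for 1 of 10 members (DDIT3) and for 1292 of the 13456 features, a similar share. At 2-fold 0 members were called in KO (1.98% of features higher, 0.446% lower) or WT (1.69% and 0.684%).

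**Figure D3:**
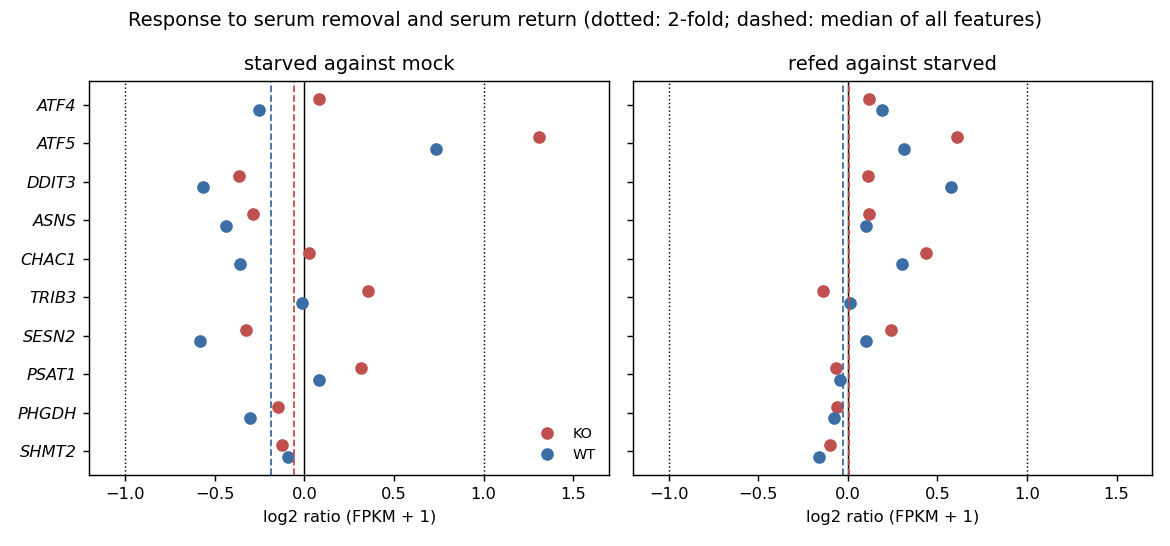
Log2 ratios (FPKM + 1) of starved over mock and refed over starved cells, with KO in red above WT in blue for each member, 1 value each. ATF5 at 1.31 in starved KO cells is the one point beyond the dotted 2-fold lines, and dashed lines mark the median of all features in each genotype.

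Other genes of the pathway were followed in 7 lists. Their counts as deposited stand beside 28.7% of all features that rose and 4.58% that fell in KO. In starved against mock cells 5.83% of all features rose and 19.4% fell. For KO against WT, 37.4% of all features rose and 5.01% fell without WT mock, and 12.3% and 10.8% after median-ratio rescaling. For starved against mock, 15.2% rose and 14.5% fell after that rescaling. Without WT mock, 0 genes of the 7 lists were called in starved against mock. With a starved or refed value of either genotype left out, 0 were called in KO against WT, where at most 16 of all features rose and 16 fell, or in starved against mock. Without either mock value 0 were called in refed against starved, whose averaged differences do not use mock values. The eIF2 kinases and the eIF2 cycle rose in KO over WT for 7 of 14 genes, and 0 fell (median log2 0.25, against 0.16 for all features). EIF2AK2, the kinase PKR, was at 8.73, 10.3 and 11.1 FPKM in mock, starved and refed KO cells and 6.68, 5.88 and 7.45 FPKM in WT (log2 0.53, limma adjusted p = 0.0180). EIF2AK4, the uncharged-tRNA sensor GCN2, rose by log2 0.40 (adjusted p = 0.0240), and EIF2AK3, the ER stress sensor PERK, was at log2 0.10 (adjusted p = 0.430). After median-ratio rescaling 2 of the 7 kept the call, and without WT mock 7 of 14 rose. In starved against mock cells 0 rose and 2 of 14 fell, a share below that of all features: EIF2AK3 and the eIF2 phosphatase subunit PPP1R15B (log2 -0.59 and -0.64). After rescaling 2 rose and 1 fell, and EIF2AK3 had adjusted p = 0.0567.

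Of 12 tested bZIP partners and other ATF4-induced regulators, 3 rose and 1 fell in KO, against 1 and 1 after median-ratio rescaling and 5 and 1 without WT mock. JDP2, a repressor of the AP-1 family, was at 2.91, 3.31 and 7.03 FPKM in KO and 1.60, 1.21 and 2.04 FPKM in WT (log2 0.99, limma adjusted p = 0.0184). The stress cytokine GDF15 fell, at 97.3, 35.6 and 116 FPKM in KO and 233, 135 and 377 FPKM in WT (log2 -1.61, adjusted p = 0.00589). In refed against starved cells 3 of the 12 rose and 0 fell, where 0.773% of all features rose and 0.052% fell. Rescaled by median ratio, 2 of the 12 rose and 0 fell. ATF3 was at 223 FPKM in refed and 11.0 FPKM in starved KO cells, and at 244 and 6.21 FPKM in the same WT states (log2 4.66, adjusted p = 0.0101). CEBPD (log2 1.94, adjusted p = 0.00834) and GDF15 (1.58, adjusted p = 0.0488) rose with it, as did PPP1R15A of the eIF2 list, which directs eIF2 dephosphorylation (1.34, adjusted p = 0.0312). After median-ratio rescaling GDF15 had adjusted p = 0.0757. Without WT mock the differences were the same and the adjusted p was 0.0849 for ATF3, 0.0521 for CEBPD, 0.0700 for GDF15 and 0.121 for PPP1R15A. These serum-induced genes are also early response genes of other pathways.

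Of 11 tested enzymes of serine, one-carbon, proline and sulphur amino acid metabolism, 4 rose and 0 fell in KO. Their median was log2 0.14, against 0.16 for all features. CTH, which makes cysteine from cystathionine, was at 6.77 and 5.27 FPKM in mock and starved KO cells and 3.63 and 3.02 FPKM in the same WT states (log2 0.72, limma adjusted p = 0.00509). MTHFD2, of the mitochondrial folate route, rose by log2 0.44 (adjusted p = 0.0151). Rescaling by median ratio left 1 that rose and gave 2 that fell, and without WT mock 4 rose and 0 fell. In starved against mock cells 1 rose and 5 fell (1 and 3 after rescaling), among them MTHFD2 (log2 -0.42) and the aminotransferase GOT1 (-0.64), while the cytosolic folate enzyme MTHFD1 rose (0.43).

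Of 20 cytosolic aminoacyl-tRNA synthetases, 8 rose and 0 fell in KO, led by LARS and QARS (log2 0.48 and 0.47, limma adjusted p = 0.0116 and 0.0162). Their median was log2 0.15, against 0.16 for all features, and after median-ratio rescaling 3 rose and 4 fell. Without WT mock 8 rose and 0 fell. In starved cells 0 rose and 4 of 20 fell, a share near that of all features, GARS by log2 -0.47 the most, and after rescaling 1 rose and 2 fell. Of 9 tested amino acid transporters, 2 rose and 0 fell in KO, SLC7A5 and SLC1A5 (log2 0.45 and 0.36), and neither was called after median-ratio rescaling. The share that rose was below that of all features, and the median of the transporters was log2 0.23, against 0.16. Without WT mock 5 rose and 2 fell, where 37.4% of all features rose and 5.01% fell. The cystine carrier SLC7A11 was at 0.532, 0.655 and 0.625 FPKM in KO and 2.17, 1.02 and 1.27 FPKM in WT (log2 -0.61, adjusted p = 0.0578), and it fell after rescaling (log2 -0.69, adjusted p = 0.0443).

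ER chaperones and the other arms of the unfolded protein response had 10 of 15 genes that fell in starved against mock cells and 0 that rose (median log2 -0.47, against -0.13 for all features), where 19.4% of all features fell. Without WT mock 0 of 15 were called, and their median was log2 -0.41, against -0.05 for all features. HSP90B1 was at 328 FPKM in starved and 552 FPKM in mock KO cells, and at 278 and 481 FPKM in the same WT states (log2 -0.77, limma adjusted p = 0.0175, and -0.77 with adjusted p = 0.0612 without WT mock). HSPA5, the chaperone BiP, fell by 0.68 on the log2 scale and had adjusted p = 0.0531 after median-ratio rescaling, which left 7 of 15 that fell. In KO against WT 6 of 15 rose and 0 fell with values as deposited (median log2 0.24, against 0.16 for all features). Rescaling left 1 that rose and gave 2 that fell. Without WT mock 5 rose and 0 fell. XBP1, a transcription factor of this response, was at 44.2, 40.7 and 54.4 FPKM in KO and 25.8, 24.1 and 32.2 FPKM in WT (log2 0.74, adjusted p = 0.00490, and 0.55 with adjusted p = 0.0116 after rescaling).

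**Figure D4:**
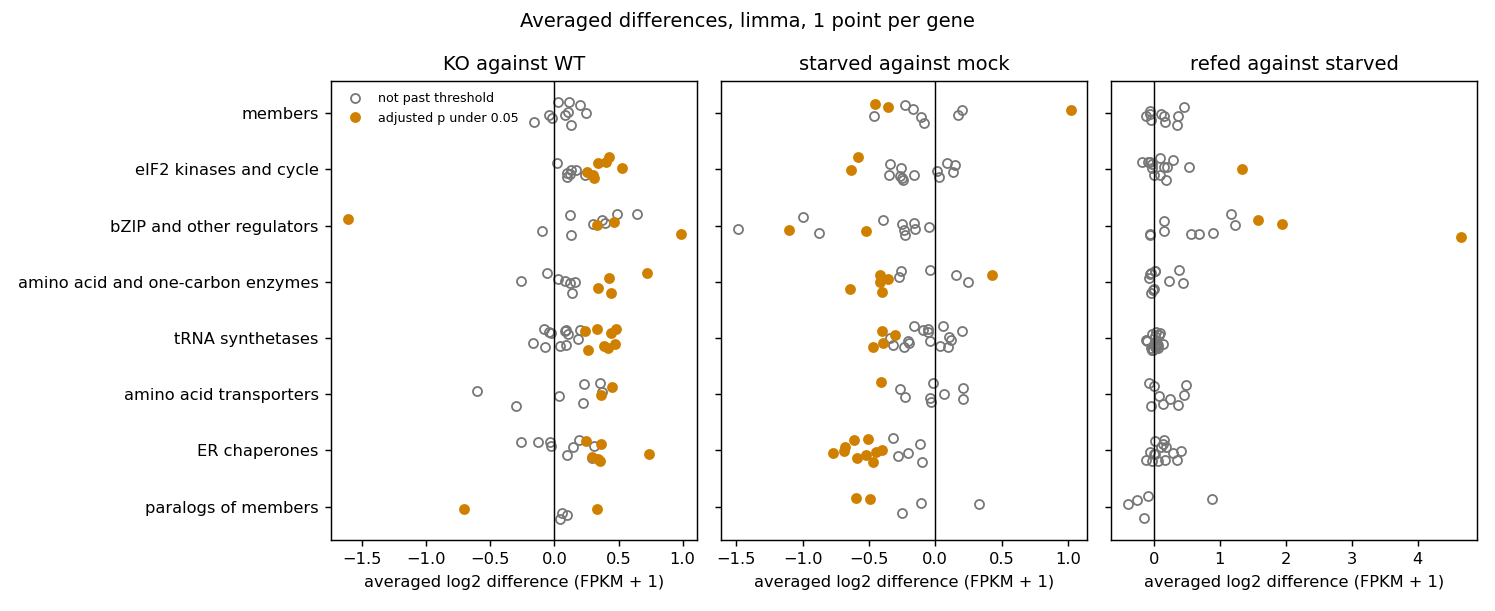
Averaged log2 difference (FPKM + 1) of each gene in the members and 7 other lists, for KO against WT, starved against mock and refed against starved, with filled points past an adjusted p of 0.05 by limma. In starved against mock the members run between -0.46 (DDIT3) and 1.02 (ATF5), and the ER chaperones have a median of -0.47.

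By Pearson's r over the 6 groups, the genes closest to ASNS among 1125 with an SD of at least 0.5 on the log2 scale were LINC00152, PDLIM3, UBE2S, TMEM65 and TMEM158 (0.99, 0.99, 0.99, 0.97 and 0.96). For DDIT3 they included SERPINB9, FAM110C, the short RNA SNORD28 and ATP1B1 (0.90, 0.89, 0.88 and 0.85). With 6 points from the same libraries such values are a description: 68 genes reached 0.9 with ASNS and 1 with DDIT3. ASNS and DDIT3 themselves had SDs of 0.17 and 0.25, so genes that vary as little were not compared.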

How the data were processed

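Polyadenylated RNA was sequenced, per the labels. The build is hg19 and the tools include cutadapt and TopHat2, per the submitters' processing notes. The authors deposited FPKM, 1 column per group of 2 labelled samples; the program, annotation and any pooling are not given in the sources used here. Depth in fragments is unknown: under 0.2 FPKM a shared spacing of values stood out for WT starved against WT refed (7.69% of genes in 1 bin of 0.01 on the log2 scale, at most 2.20% for other pairs). Values were used as deposited, as log2(FPKM + 1), for the 13456 features that reached 1 FPKM in any group. limma 3.58.1 (R 4.3.3, variance trend) fitted genotype and state, threshold 0.05, and was tested on simulated data. Python 3.11.15, numpy 2.4.6, pandas 2.3.3 and matplotlib 3.10.9 were used. Tables were read from GENCODE (overlaps, pseudogenes) and RefSeq (promoters). Alternatives were 2 rescalings, a pseudocount of 0.1, filters of 5 FPKM and none, no variance trend, and each value left out (for the lists other than the members, added after seeing the data). Named from each list were up to 4 called genes per comparison at 5 FPKM or more, largest first; EIF2AK3, SLC7A11 and the genes so marked in the text were named after their values were seen. The members and lists were chosen with earlier results of these data known. Of the genes closest to DDIT3, 1 is not reported here.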

Additional observations from a re-analysis of the deposited data

Results flagged for a closer look

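In these results the log2 ratios of the genotypes had opposite signs under the same change of culture. The ratios of CHAC1 in KO and of TRIB3 in WT were close to 0. Each rests on 1 value per group, and the difference was not tested. For starved against mock, ATF4 had a log2 ratio of 0.08 in KO and -0.25 in WT (difference 0.34), CHAC1 0.02 in KO and -0.36 in WT (0.38), and TRIB3 0.36 in KO and -0.01 in WT (0.37), beside a median difference of 0.12 over all features. After median-ratio rescaling the signs were the same for TRIB3 (0.42 in KO and 0.19 in WT), and ATF4 was at 0.16 in KO and -0.02 in WT. These starved ratios in WT use WT mock. For refed against starved, TRIB3 had -0.14 in KO and 0.01 in WT (difference -0.15, median 0.04).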

How the results depend on the processing

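No paired analysis was possible because the columns carry no replicate number. Counts of members at 2-fold were the same under both rescalings, the pseudocount of 0.1 and both filters. In KO against WT, where 0 members rose and 0 fell, 1 fell after rescaling by median ratio and 2 by upper quartile (ASNS at log2 -0.19, which had been 0.03, and PSAT1), and leaving out 1 value gave 0 to 2 that rose. In starved against mock, where 1 rose and 2 fell, 3 rose after rescaling by median ratio and 2 by upper quartile, 0 rose and 0 fell without a filter on low values, 1 fell without the variance trend, and leaving out 1 value gave 0 to 1 that rose and 0 to 2 that fell. In refed against starved the counts stayed at 0 under all of these. Over all features, 3867 rose and 616 fell in KO, and 741 and 241 without the filter; 785 rose and 2605 fell in starved cells, and 0 and 0 without it. The cause was not tested. With 1 value per group and depth unknown, differences of the size seen in most members have no error from replicates.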

Other observations

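Of 5 close relatives of the members, 1 rose and 1 fell in KO against WT, where 28.7% of all features rose and 4.58% fell. In starved against mock 0 of the 5 rose and 2 fell, where 5.83% of all features rose and 19.4% fell. Without WT mock, 2 of the 5 rose and 1 fell in KO, where 37.4% of all features rose and 5.01% fell. SESN3 fell in KO (log2 -0.71, limma adjusted p = 0.0106), at 1.34, 0.551 and 0.447 FPKM in mock, starved and refed KO cells and 2.93, 1.58 and 1.25 FPKM in WT, unlike SESN2, whose averaged difference was 0.20; the difference between them was not tested. CHAC2, a glutathione-degrading relative of CHAC1, rose (log2 0.33, limma adjusted p = 0.0248, and 0.18 with adjusted p = 0.0840 after median-ratio rescaling) and was above CHAC1 in every group. TRIB1, a relative of TRIB3, was at 95.6, 121 and 208 FPKM in KO and 88.7, 111 and 223 FPKM in WT, with log2 0.88 for refed against starved (limma adjusted p = 0.0519). TRIB2 fell in starved against mock cells (log2 -0.49, limma adjusted p = 0.0215, and 0.0742 without WT mock). SESN3, CHAC2 and TRIB1 were chosen after their values were seen.

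The match to ATF5, also chosen after seeing the data, gave RRS1, the short RNA SNORA64, PIGW, PRR22 and SRSF2 as the closest genes (Pearson's r 0.98, 0.98, 0.98, 0.97 and 0.97 over the 6 groups), with 17 of 1125 genes at 0.9 or more. RRS1 was at 12.0, 21.8 and 31.0 FPKM in mock, starved and refed KO cells and 12.5, 21.3 and 26.3 FPKM in WT.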
